A study of Mus musculus with 12 samples.

Results

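The myelin and oligodendrocyte genes were 9 mouse genes, Cnp, Mbp, Mag, Mog, Mobp, Cldn11, Olig1, Olig2 and Sox10. They were taken by name alone: each Ensembl identifier in the count and FPKM files was matched to its symbol, and 9 of the 54532 identifiers carried these symbols. The samples were 12 bulk RNA-seq libraries of retina from wild type female C57BL/6 mice, 13 weeks old, in 4 groups of 3 libraries. SHAM was the sham control. The MOG group was immunized with a peptide of myelin oligodendrocyte glycoprotein in complete Freund's adjuvant with Mycobacterium tuberculosis and was also given pertussis toxin, which brings on experimental autoimmune encephalomyelitis with optic neuritis. The GB20 group and the GV16 group were immunized in the same way and were then needled repeatedly under xylazine and ketamine, at acupoint GB20 or at the control acupoint GV16. What the sham mice received and whether the SHAM and MOG mice were anesthetized are not stated, so needling and anesthesia cannot be told apart in these groups. The study's methods give 2 or 3 mice per group in each of 3 repeats of the experiment and RNA taken per group, but do not say in so many words that a library pools the mice of 1 repeat. MOG names a group of mice below, and Mog names the gene. Total counts per library were 16637268 to 18033426 in SHAM, 16122738 to 18067710 in MOG, 16338917 to 19194280 in GB20 and 15860278 to 16198995 in GV16.

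Oligodendrocytes wrap axons of the central nervous system in myelin. In the mouse the axons of retinal ganglion cells run bare across the retina and gain myelin only in the optic nerve behind the eye, so a clean retina holds few or no myelinating cells. Olig1, Olig2 and Sox10 are transcription factors that set and keep the oligodendrocyte fate. Cnp, Mbp, Mag, Mog, Mobp and Cldn11 encode proteins of the sheath itself: Mbp and Mobp hold the compacted membranes together, Cldn11 makes the tight junctions between the turns, Mag lies on the face toward the axon, Mog lies on the outermost face, and Cnp encodes an enzyme of the uncompacted cytoplasmic channels. The question here was whether Cnp followed the other myelin genes in this unmyelinated tissue.

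The level of each gene was compared with that of other genes per length, as FPKM (fragments scaled by transcript length and by the mapped fragments of the library), and between libraries as CPM (counts scaled by the total of the library and its normalization factor). The tissue label held, since all 14 retinal neuron markers passed the filter on low counts, among them the cone opsin gene Opn1mw (94.85 FPKM in SHAM) and the ganglion cell gene Thy1 (52.1 FPKM in SHAM). Among the transcription factors of the oligodendrocyte lineage, the 3 of the gene set were near the floor. Olig2 had a single count in all 12 libraries together, in MOG replicate 2, and Olig1 had 8 counts in 6 libraries. Sox10 had 41 counts, from 0 to 6 in a library, and Nkx2-2, another factor of the lineage, had none in any library. Of the 10 listed factors 5 passed the filter all the same, with mean levels in SHAM of 69.6 CPM for Zfp536, 22.9 CPM for Sox8, 13.7 CPM for Zfp488, 3.54 CPM for Tcf7l2 and 1.76 CPM for Myrf. A count of 0 allows up to 3 counts in that library, as a one-sided 95% limit by counting error alone. Of the 9 genes, 3 passed the filter on low counts and were tested, namely Cnp, Mbp and Mog. The other 6 were too sparse for a test and are given as counts.

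By mean FPKM over the 12 libraries the order was Cnp 5.12, Mbp 4.02, Mog 0.329, Cldn11 0.172, Mag 0.0801, Mobp 0.0662, Sox10 0.0652, Olig1 0.0182 and Olig2 0.00200. Cnp was above Mbp in 11 of 12 libraries, although their ranges overlapped, from 3.78 to 6.99 FPKM for Cnp and from 3.25 to 5.42 FPKM for Mbp. Between Mbp and Mog the levels parted: Mbp was above Mog in 12 of 12 libraries and the ranges did not overlap. Below them, the FPKM ranges of all neighbours in the order overlapped. Mog was above Cldn11 in 10 libraries, Cldn11 above Mag in 12, Mag above Mobp in 11, Sox10 above Olig1 in 10 and Olig1 above Olig2 in 6. The place of Mobp came from 1 library, and without MOG replicate 2 its mean was 0.00614 FPKM, below Sox10 and Olig1.

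MOG replicate 2 stood apart from the other 11 libraries in several sheath genes. Mobp had 82 counts there and from 0 to 3 counts in each of the others. Mag had 20 counts against 1 to 7, and Cldn11 had 19 counts against 2 to 7. Mbp was also highest in this library, at 46.1 CPM against 27.7 to 36.5 CPM in the other 11. Cnp did not share this: at 24.5 CPM MOG replicate 2 ranked 3 for Cnp, below both other MOG libraries. Mog ranked 3 there as well, at 0.737 CPM. From lists of marker genes, 6 of the 13 myelin membrane proteins were highest in MOG replicate 2, Mbp, Mag, Mobp and Cldn11 among them, as were 2 of 12 mature oligodendrocyte markers with at least 12 counts (Ermn and Bcas1). Over all 25168 genes with at least 12 counts, 10.5% were highest in it. In the comparisons with MOG, the log2 differences of Cnp, Mbp and Mog and the list medians of MOG vs. SHAM are therefore given with and without this library.

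**Figure D1:**
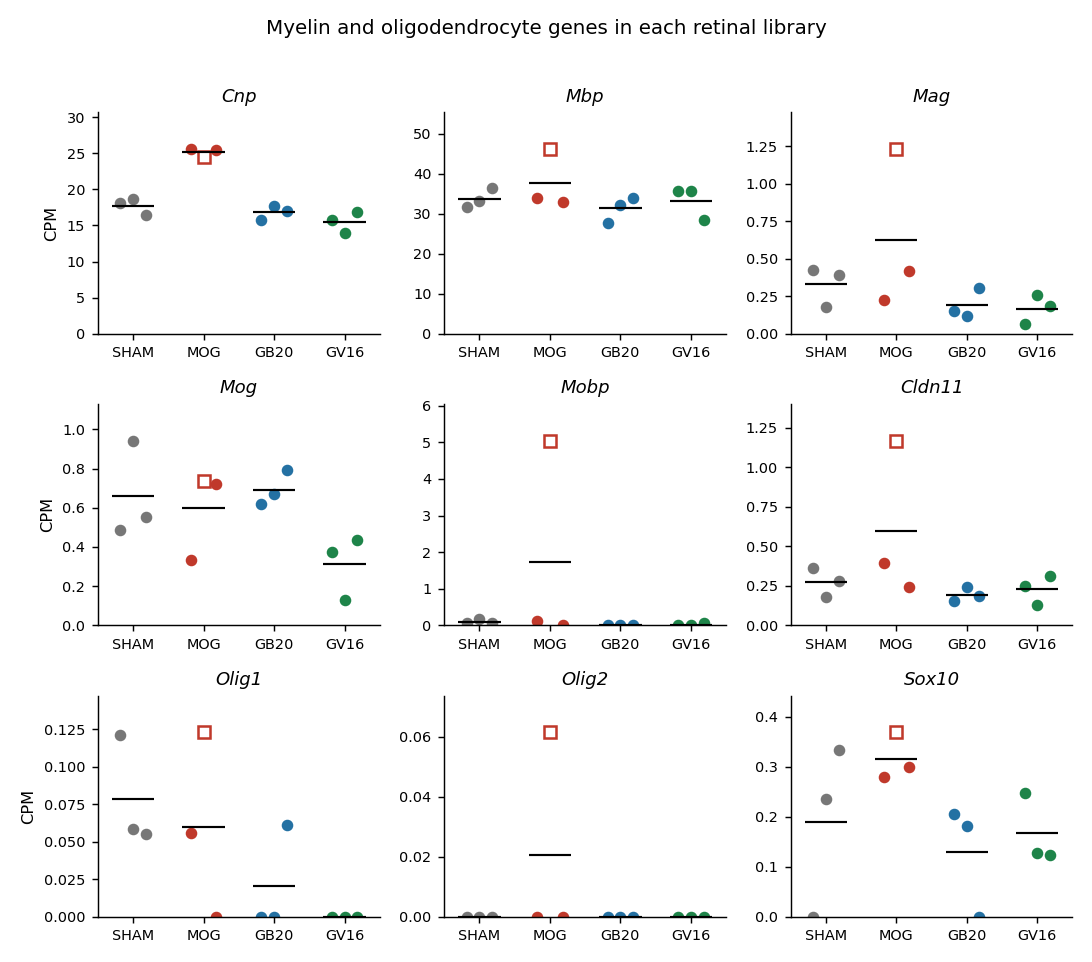
Level (CPM) of each of the 9 genes in each of the 12 libraries, by group, with the group mean as a black line and MOG replicate 2 as an open square; the vertical scales differ. Cnp was higher in all 3 MOG libraries than in the other 9, whereas Mobp, Mag and Cldn11 were high in MOG replicate 2 alone.

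Cnp (ENSMUSG00000006782) lies on the plus strand of chromosome 11 at 100574904 to 100591729 of GRCm38, as a protein-coding gene with 4 annotated transcripts. Its promoter is shown because Cnp was the 1 DEG (differentially expressed gene, adjusted p under 0.05) among the 9 genes, and it was searched for an interferon response element (a pair of GAAA boxes with 2 bases between them), a SOX element (AACAAAG) and an E-box (CANNTG), the last 2 being letters that SOX proteins such as Sox10 and basic helix-loop-helix proteins such as Olig1 and Olig2 can bind. The 215 bases before the gene's start, chr11:100574689-100574903 on the plus strand (RefSeq, GRCm38.p6), follow, with matches to the motifs on either strand in capitals.
Cnp: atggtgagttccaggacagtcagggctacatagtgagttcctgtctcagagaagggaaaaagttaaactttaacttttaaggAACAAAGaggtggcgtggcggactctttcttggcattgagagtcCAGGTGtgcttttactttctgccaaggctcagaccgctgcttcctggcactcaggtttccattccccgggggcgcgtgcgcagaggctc
The window held 1 AACAAAG, 133 bases before the start, and 1 CANNTG, 89 bases before the start, and the matches did not overlap. It held 0 matches to the interferon response element, which says only that these letters are not in this window. Among 32817 promoter windows of the same 215 bases, 4.36% held AACAAAG, 61.4% held CANNTG and 2.57% held the interferon response element. The table of promoters had an entry for 6 of the 9 genes.

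Cnp counts were 299, 318 and 296 in the SHAM libraries, replicates 1 to 3. In the MOG libraries they were 456, 398 and 423, in the GB20 libraries 306, 291 and 280, and in the GV16 libraries 253, 216 and 272. Every MOG library was above every library of the other groups. On the CPM scale, the 95% counting interval of the lowest MOG library (22.1 to 27.0 CPM) lay above that of the highest other library (SHAM replicate 2, 16.7 to 20.9 CPM). The mean level was 17.7 ± 1.18 CPM in SHAM, 25.1 ± 0.583 CPM in MOG, 16.8 ± 0.983 CPM in GB20 and 15.5 ± 1.49 CPM in GV16 (SD, n = 3 libraries each). In order of mean level MOG came before SHAM, GB20 and GV16, and no test found a difference among the last 3.

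MOG vs. SHAM asks what the immunization did to retinal transcripts. Of 18299 genes tested, 245 (1.34%) were DEGs in either direction, and 1 of the 3 tested genes was among them. That gene was Cnp. It was upregulated in MOG by 0.50 on the log2 scale (SE 0.0988, 95% interval 0.298 to 0.707), a 1.42-fold difference, with an adjusted p of 0.00776 by the edgeR quasi-likelihood F-test with Benjamini-Hochberg adjustment, and all 3 MOG libraries were above all 3 SHAM libraries. It was a modest change among the DEGs, ranking 92 of 18299 genes by p and 152 of the 245 DEGs by size. Without MOG replicate 2 the log2 difference was 0.53, with an adjusted p of 0.0322 by the same edgeR quasi-likelihood test with Benjamini-Hochberg adjustment. Without MOG replicate 3 it was 0.50 but no longer a DEG, at an adjusted p of 0.0550 by that edgeR test with Benjamini-Hochberg adjustment, the range over all alternatives being 0.00125 to 0.0668. Both limma fits on log2 FPKM also lost the call (0.43 and 0.50). In bulk tissue, fewer cells of a type and less RNA per cell cannot be told apart, and this holds for every difference given here.

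GB20 vs. MOG and GV16 vs. MOG ask what needling changed in immunized mice. In GB20 vs. MOG, 44 genes (0.24%) were DEGs, and again 1 of the 3 tested genes was among them. Cnp was downregulated in GB20 by a log2 difference of -0.58 (SE 0.0991, 95% interval -0.784 to -0.374), with an adjusted p of 0.00767 (edgeR quasi-likelihood, Benjamini-Hochberg adjusted), and all 3 GB20 libraries were below all 3 MOG libraries. It ranked 15 of 18299 by p and 22 of the 44 DEGs by size. The difference was as large without MOG replicate 2, at -0.60 and an adjusted p of 0.0441 (edgeR quasi-likelihood, Benjamini-Hochberg). The call was lost without MOG replicate 3 (-0.57), without GB20 replicate 1 (-0.53) and in both limma fits on log2 FPKM (-0.49 and -0.57), and the adjusted p ran from 0.000250 to 0.0844 over all alternatives to this edgeR quasi-likelihood test with its Benjamini-Hochberg adjustment.

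In GV16 vs. MOG there were 30 DEGs (0.164%), of which 1 was among the 3 tested genes. For Cnp the log2 difference was -0.70 (SE 0.1004, 95% interval -0.906 to -0.490) with an adjusted p of 0.00218 (edgeR quasi-likelihood, Benjamini-Hochberg adjusted), and all 3 GV16 libraries were below all 3 MOG libraries. This was the rank 4 gene by p in this comparison and the rank 18 gene of the 30 by size. It remained a DEG without each of the 12 libraries in turn, and without MOG replicate 2 the log2 difference was -0.72 at an adjusted p of 0.0145 (edgeR quasi-likelihood, Benjamini-Hochberg). The alternatives for this comparison ran from an adjusted p of 2.89e-06 to 0.0328 in edgeR quasi-likelihood, DESeq2 and limma tests with Benjamini-Hochberg adjustment.

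The drop in Cnp was seen at both acupoints, and no difference between them was found. GB20 vs. GV16 asks whether the acupoint mattered. It had 1 DEG (0.00546%), which was none of the 3 tested genes, with 536 genes at an unadjusted p under 0.05 and 5 DEGs by DESeq2. The Cnp log2 difference was 0.12 (95% interval -0.0936 to 0.332). GB20 vs. SHAM and GV16 vs. SHAM ask whether needled mice came back to the sham level. GB20 vs. SHAM had 63 DEGs (0.344%) and GV16 vs. SHAM had 120 (0.656%), with 0 of the 3 tested genes in either by the edgeR test, by DESeq2 or by limma. At an unadjusted p under 0.05 the edgeR test had 0 of the 3 in GB20 vs. SHAM and 1, Mog, in GV16 vs. SHAM and in GB20 vs. GV16, where 1657 (9.06%), 2001 (10.9%) and 536 (2.93%) of all genes did. In the comparisons with MOG these numbers were 2380 (13%) in MOG vs. SHAM, 1464 (8%) in GB20 vs. MOG and 969 (5.3%) in GV16 vs. MOG. Groups whose libraries did not overlap, as for Cnp in all comparisons with MOG, were also common, at 2967 genes (16.2%) in MOG vs. SHAM, 2866 (15.7%) in GB20 vs. MOG, 2309 (12.6%) in GV16 vs. MOG and 2333 (12.7%) in GB20 vs. SHAM. Cnp was at -0.08 on the log2 scale in GB20 vs. SHAM (95% interval -0.286 to 0.133) and at -0.20 in GV16 vs. SHAM (95% interval -0.408 to 0.0166). These intervals allow a small remaining rise or a level below SHAM, so equality with SHAM was not shown. In the F-test of any difference among the 4 groups, 201 genes (1.1%) passed, and Cnp was 1 of them at an adjusted p of 0.000865 (edgeR quasi-likelihood, Benjamini-Hochberg).

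The 3 comparisons in which Cnp was a DEG all use the same MOG libraries, and those with SHAM share the SHAM libraries. A high level in the 3 MOG libraries would by itself give a rise against SHAM and a drop at both acupoints, so the 3 DEG calls are not independent of each other.

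Cnp shares part of its exonic bases with a neighbour on the other strand: Dnajc7, a chaperone gene, overlaps 154 exonic bases, or 4.23% of those of Cnp. The labels do not say whether counting kept the strands apart. Dnajc7 was more abundant than Cnp by counts, with a mean of 133.1 ± 13.4 CPM in SHAM and of 135.3 ± 1.48 CPM in MOG (SD, n = 3), and was a DEG in none of the 6 comparisons by the edgeR test. Its log2 difference was 0.02 in MOG vs. SHAM (95% interval -0.127 to 0.174).

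**Figure D2:**
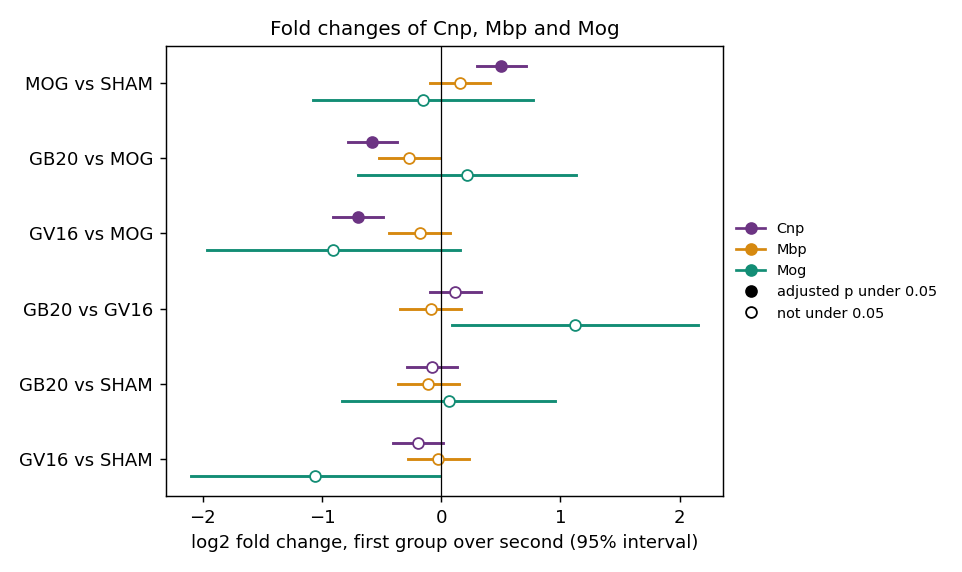
Log2 fold change of Cnp, Mbp and Mog in the 6 comparisons (first group over second), with 95% intervals; filled points had an adjusted p under 0.05. Cnp was filled in the 3 comparisons of MOG with another group, at 0.50, -0.58 and -0.70, and Mbp and Mog in none.

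Mbp (ENSMUSG00000041607) is a gene of 16 annotated transcripts on the plus strand of chromosome 18 at 82475146 to 82585637. Besides the myelin basic proteins it encodes the golli proteins, which start far upstream and are made outside myelin as well, in neurons among other cells. Gene counts do not separate the transcripts. Mbp counts were 522, 564 and 658 for SHAM, 606, 750 and 550 for MOG, 538, 531 and 559 for GB20, and 574, 556 and 458 for GV16. By CPM, MOG replicate 2 was the highest library, and the other MOG libraries lay inside the range of SHAM and of GV16. Mean levels were 33.8 ± 2.51 CPM in SHAM, 37.7 ± 7.30 CPM in MOG, 31.4 ± 3.27 CPM in GB20 and 33.3 ± 4.23 CPM in GV16 (SD, n = 3).

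Mbp was a DEG in none of the 6 comparisons, by the edgeR test, DESeq2 or limma, and had an unadjusted p under 0.05 in 1, GB20 vs. MOG. In MOG vs. SHAM its log2 difference was 0.16 (SE 0.121, 95% interval -0.0969 to 0.410), with an adjusted p of 0.611 by the edgeR quasi-likelihood test with Benjamini-Hochberg adjustment. Without MOG replicate 2 it was -0.01. In GB20 vs. MOG the log2 difference was -0.27 (95% interval -0.520 to -0.0116, adjusted p 0.601 by edgeR quasi-likelihood with Benjamini-Hochberg adjustment), and -0.10 without that library. In GV16 vs. MOG it was -0.18 (95% interval -0.434 to 0.0752), and -0.01 without that library. Most of the difference that Mbp showed in these comparisons thus lay in MOG replicate 2. In the comparisons without MOG, Mbp was at -0.09 in GB20 vs. GV16, -0.11 in GB20 vs. SHAM and -0.02 in GV16 vs. SHAM. With each library left out in turn, the first of these ran from -0.189 to -0.003 and the second from -0.179 to -0.027.

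Mog (ENSMUSG00000076439, minus strand of chromosome 17, 37010743 to 37023398) encodes the protein whose peptide was used to immunize. Its 115 counts were 8, 16 and 10 for SHAM, 6, 12 and 12 for MOG, 12, 11 and 13 for GB20, and 6, 2 and 7 for GV16. The GV16 libraries were lowest as a group, below all SHAM and all GB20 libraries by CPM, but the counts were few: the 95% counting interval was 0.242 to 7.22 counts for GV16 replicate 2 and 9.15 to 26.0 counts for SHAM replicate 2, the lowest and highest libraries. In MOG vs. SHAM the log2 difference was -0.15 (95% interval -1.07 to 0.767, adjusted p 0.919 by edgeR quasi-likelihood with Benjamini-Hochberg adjustment), and -0.33 without MOG replicate 2. It was 0.22 in GB20 vs. MOG and -0.90 in GV16 vs. MOG (95% interval -1.97 to 0.157), and 0.39 and -0.73 without that library. Leaving out GV16 replicate 2, with its 2 counts, brought GV16 vs. MOG to -0.55.

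The widest gaps for Mog did not involve the MOG group. They were 1.12 in GB20 vs. GV16 (95% interval 0.0893 to 2.15) and -1.06 in GV16 vs. SHAM (95% interval -2.10 to -0.0161), where the libraries of the groups did not overlap, as for 1527 (8.34%) and 2646 (14.5%) of all genes tested. Neither was a DEG, with adjusted p of 0.9999 and 0.448 by the edgeR quasi-likelihood test with Benjamini-Hochberg adjustment. Both gaps were smaller without GV16 replicate 2, at 0.77 and -0.70. In limma on log2(FPKM + 1) they were 0.25 and -0.23. In MOG vs. SHAM the SE of Mog was 0.444, and its interval did not exclude a difference of the size seen for Cnp.

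The other 6 genes were below the filter, so their counts describe the libraries and carry no test among the DEGs. Mag had 66 counts in all, from 1 to 7 in each library except MOG replicate 2. Cldn11 had 65, from 2 to 7 outside that library. Mobp had 90 counts, of which 82 were in MOG replicate 2, and 6 of the 12 libraries, in 3 groups, had 0. Sox10 ranged from 0 to 6 and had 5, 6 and 5 counts in the MOG libraries. Olig1 had at most 2 counts in any library and 0 in 6 libraries, in 3 groups. With no filter on low counts, none of these 6 genes was a DEG in any of the 6 comparisons. Before adjustment, that edgeR fit put Mag and Cldn11 under 0.05 in GB20 vs. MOG (-1.64 and -1.59). It did so too in GV16 vs. MOG (-1.83 and -1.34). Mobp was under 0.05 in GB20 vs. MOG alone, and none of the 6 was in the other comparisons. MOG replicate 2 held 20 of the 31 MOG counts of Mag, 19 of the 30 of Cldn11 and 82 of the 84 of Mobp. The fit with no filter was not repeated without this library. The share of all genes under 0.05 was not taken for it, so these unadjusted values carry no result about the 6 genes. By CPM the Sox10 libraries of MOG were above those of GB20 and GV16, but not above all of SHAM.

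A DEG call for Cnp beside no call for Mbp does not show that they differ, so the ratio of Cnp to each of the tested genes was compared between groups. Library size cancels in this ratio. The Cnp to Mbp ratio of CPM was 0.573, 0.564 and 0.450 in SHAM and 0.753, 0.531 and 0.769 in MOG. It was 0.569, 0.548 and 0.501 in GB20 and 0.441, 0.389 and 0.594 in GV16. MOG replicates 1 and 3 were above all other libraries, while MOG replicate 2, where Mbp was high, lay among the rest. In an exact permutation test over all ways to part the 12 libraries into 4 groups of 3, the ratio did not differ between the 4 groups beyond its spread (p = 0.146, two-sided, 6.49e-05 being the smallest p possible). For MOG vs. SHAM alone the exact permutation p was 0.3, two-sided, where 3 against 3 libraries cannot go below 0.1.

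That result turned on single libraries. The exact permutation p was 0.0362 without MOG replicate 2 and 0.0359 without GV16 replicate 3 (two-sided), and it ran from 0.0359 to 0.389 over the libraries left out in turn. The Cnp to Mog ratio was 28.95 ± 8.77 in SHAM, 48.1 ± 24.2 in MOG, 24.5 ± 2.61 in GB20 and 63.0 ± 39.0 in GV16 (SD, n = 3). The GV16 mean rested on replicate 2, which had 2 Mog counts: its libraries were at 42.2, 108.0 and 38.9. For the Cnp to Mog ratio the exact permutation p was 0.107 (two-sided, F-test over the 4 groups), and 0.3 for MOG vs. SHAM. It fell to 0.0397 without MOG replicate 1 in the same exact permutation test, whose range was 0.0397 to 0.170. Adjusted by Benjamini-Hochberg over the 2 ratios, both exact permutation p were 0.146. With all libraries, then, a departure of Cnp from Mbp or from Mog was not larger than the replicate spread.

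**Figure D3:**
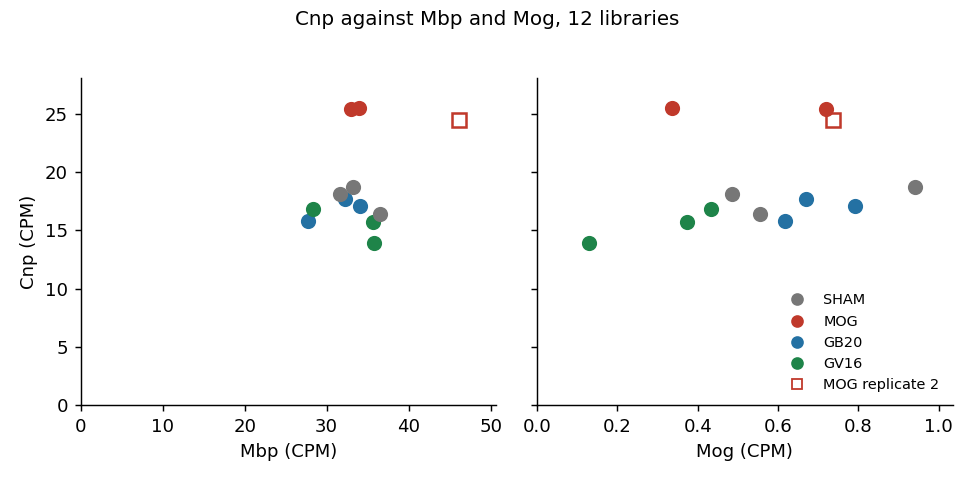
Cnp level (CPM, vertical) against Mbp and Mog (CPM, horizontal) in the 12 libraries, colored by group, with MOG replicate 2 as an open square. The 3 MOG libraries sit at 24.5 to 25.5 CPM of Cnp above the rest, and only MOG replicate 2 lies to the right of the other libraries for Mbp.

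Because the MOG libraries formed a cluster of their own in Cnp, correlations were taken over the other 9 libraries and on deviations from group means. The points share a tissue and a similar depth. Over the 9 libraries, Cnp and Mbp had a Pearson r of -0.230 (exact permutation p = 0.555, the same after adjustment over the 2 correlations) and a Spearman coefficient of -0.350 (exact permutation p = 0.359), two-sided. Leaving out the 2 libraries farthest from the median of Cnp gave r = -0.0254 (exact permutation p = 0.951, n = 7), and on deviations from group means in all 12 libraries r was -0.376 (exact permutation within groups, p = 0.278) and the Spearman coefficient -0.420. Library by library, Mbp therefore did not go up and down with Cnp in any detectable way, and without GV16 replicate 2 the sign of r turned, to 0.0471.

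Cnp and Mog gave r = 0.832 (exact permutation p = 0.00878, adjusted over the 2 correlations 0.0176) and a Spearman coefficient of 0.717 (exact permutation p = 0.0369) over the 9 libraries, two-sided. The relation rested on a few libraries. Without the 2 farthest from the median of Cnp it was r = 0.279 (exact permutation p = 0.537, n = 7), and without GV16 replicate 2, which had 2 Mog counts, r was 0.556 (exact permutation p = 0.154). On deviations from group means r was 0.593 (exact permutation within groups, p = 0.162, n = 12) and the Spearman coefficient 0.531.

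The other genes of myelin were read from lists. Of 13 myelin membrane proteins, 9 were tested, and Cnp was the 1 DEG among them in MOG vs. SHAM, in GB20 vs. MOG and in GV16 vs. MOG, by edgeR and by DESeq2. There were 0 in the remaining comparisons by either tool, with 1 or 2 of the 9 at an unadjusted p under 0.05 in each. Their median log2 difference in MOG vs. SHAM was 0.09, beside -0.00 for all genes tested, and -0.10 without MOG replicate 2. Gpm6b, which neurons and other glia also express, was the most abundant of them (46.0 FPKM) and made up 68.7% of the summed CPM.

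Enzymes, factors and stage markers of the lineage were read next. Of 9 enzymes of lipid metabolism 7 were tested, the most abundant being Smpd1 (31.6 FPKM, 45.5% of the summed CPM), which breaks sphingomyelin down, with a median log2 difference of -0.04 in MOG vs. SHAM (-0.06 without MOG replicate 2). Of 10 oligodendrocyte transcription factors 5 were tested, led by Zfp536 (8.39 FPKM, 65.5% of the summed CPM), with a median of -0.04 (-0.00 without that library). Of 7 precursor markers 4 were tested, led by C1ql1 (49.5 FPKM, 51.1% of the summed CPM), with a median of -0.06 (-0.05 without it) and Neu4 without a count. Which cells carry the transcripts of these lists was not tested. These 3 lists had 0 DEGs in the 6 comparisons by edgeR or DESeq2, and from 0 to 2 genes of a list at an unadjusted p under 0.05 in a comparison. Of 14 mature oligodendrocyte markers 8 were tested, led by Car2 (187.5 FPKM), which Müller glia also express, with a median of -0.04 (-0.045 without it). Trf, the transferrin gene, was the 1 DEG among these 8, in MOG vs. SHAM alone, where 2 of them had an unadjusted p under 0.05.

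Trf counts were 28, 46 and 21 for SHAM, 66, 61 and 67 for MOG, 40, 44 and 59 for GB20, and 37, 42 and 44 for GV16. All MOG libraries were above all others in CPM, as for Cnp. The log2 difference in MOG vs. SHAM was 1.05 (SE 0.257), with an adjusted p of 0.0406 (edgeR quasi-likelihood, Benjamini-Hochberg), and Trf was a DEG there by DESeq2 too. The call held in 5 of the 12 fits that left out a library and was lost without SHAM replicate 1 or 3, any MOG replicate, or GV16 replicate 2 or 3, at log2 differences of 0.79 to 1.07. A transcript model on the same strand, Gm20425, overlaps 63.5% of the exonic bases of Trf, so its counts may not be those of Trf alone.

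Markers of other myelinating or axon-contacting structures were read in the same way for MOG vs. SHAM. Of 10 Schwann cell markers 7 were tested, led by Dhh (6.35 FPKM), with a median log2 difference of 0.10 (0.09 without MOG replicate 2). Other transcript models, on either strand, overlap 37.6% of the exonic bases of Dhh, so its counts may not be those of Dhh alone. Of 9 axoglial junction genes 9 were tested, led by Nfasc (32.9 FPKM), with a median of -0.07 (-0.04 without MOG replicate 2). Muscle markers (4 of 8 tested, led by Acta1 at 1.18 FPKM) had a median of -0.25 with or without it. Of 8 lens markers 2 were tested, Bfsp1 (0.34) and Crybb2 (-4.61), and 75 of the 83 SHAM counts of Crybb2 were in SHAM replicate 2, so no median is given. Cryaa, the most abundant lens marker (0.405 FPKM), failed the filter. The lens sum was 15.8 CPM in SHAM replicate 2 and 8.999 CPM in GB20 replicate 2, against 0.681 to 2.31 CPM in the other 10 libraries. For these 4 lists the DEG count was 0 in the 6 comparisons by edgeR and by DESeq2, and at an unadjusted p under 0.05 there were 0 muscle or lens genes, 0 to 2 Schwann cell genes and 0 to 5 axoglial genes in a comparison.

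Markers of immune cells and glia were read beside Cnp. All 12 microglia markers were tested and had positive log2 differences in MOG vs. SHAM, with a median of 0.39 (0.50 without MOG replicate 2) beside -0.00 for all genes, and 2 of them, Csf1r (0.59) and C1qa (0.99), were DEGs by edgeR and by DESeq2. Their summed level was 51.3, 51.7 and 44.2 CPM in SHAM, 71.4, 61.6 and 67.8 CPM in MOG, 74.1, 64.9 and 58.6 CPM in GB20, and 72.0, 64.7 and 64.0 CPM in GV16, with no marker at 0. The mean of this sum was 49.05 CPM in SHAM, 66.9 CPM in MOG, 65.9 CPM in GB20 and 66.9 CPM in GV16. Csf1r was a DEG in 9 and C1qa in 3 of the 12 fits that left out a library; Csf1r was lost without SHAM replicate 3 (0.50) and MOG replicates 1 (0.52) and 3 (0.59), and C1qa without each library but SHAM replicate 2 and GB20 replicates 1 and 3, at 0.71 or more. In GB20 vs. SHAM the microglia median was 0.45, with 11 of 12 positive and 0 DEGs by edgeR, where DESeq2 called C1qa and C1qb. In GV16 vs. SHAM it was 0.67, with 12 of 12 positive, and Csf1r was a DEG by both tools (0.58), lost in edgeR without any 1 of the 12 libraries. At an unadjusted p under 0.05 there were 4 of the 12 in MOG vs. SHAM, 5 in GB20 vs. SHAM, 7 in GV16 vs. SHAM, 1 in GV16 vs. MOG and 0 in the other comparisons. The part of microglia in the Cnp difference was not tested.

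Of 20 interferon response genes 18 were tested, and 17 of these had positive log2 differences in MOG vs. SHAM, with a median of 0.46 (0.52 without MOG replicate 2). At an unadjusted p under 0.05 there were 10 of the 18 in MOG vs. SHAM, 5 in GB20 vs. SHAM and 2 in GV16 vs. SHAM, beside 13%, 9.06% and 10.9% of all genes, and 1 in each other comparison. By edgeR, Oas2 was the 1 DEG among them, at 2.86, while DESeq2 called Oas2 and Ifit1 there and Bst2 in GB20 vs. SHAM, and the most abundant was Stat2 (8.37 FPKM). Oas2 counts were 5, 5 and 4 for SHAM, 44, 30 and 29 for MOG, 17, 3 and 7 for GB20, and 4, 7 and 2 for GV16, so that its MOG libraries stood above all others as those of Cnp did. It was also a DEG in GB20 vs. MOG (-1.97) and in GV16 vs. MOG (-2.86), in 7 and 9 of the 12 fits that left out a library, while the low-count filter of DESeq2 left it without an adjusted p. The first was lost without any MOG library or GB20 replicate 2 or 3, and the second without MOG replicate 1 or GV16 replicate 1 or 3. Over these fits it ran from -2.70 to -1.60 in GB20 vs. MOG and from -3.39 to -2.51 in GV16 vs. MOG. In GB20 vs. MOG the median of the list was -0.02 with 9 of 18 positive, and in GV16 vs. MOG it was -0.23 with 3 of 18 positive. Against SHAM the median was 0.47 in GB20 with 17 of 18 positive, and 0.23 in GV16 with 15 of 18 positive. The sum of the list was 138.6, 173.4 and 144.0 CPM for SHAM, 188.9, 174.3 and 219.3 CPM in MOG, 225.2, 167.2 and 177.1 CPM in GB20, and 188.9, 151.5 and 184.7 CPM in GV16. The part of interferon signaling in the Cnp difference was not tested.

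Of 10 astrocyte and Müller glia markers, all tested and led by Glul (587.6 FPKM), Gfap (1.25) and Aqp4 (0.46) were DEGs in MOG vs. SHAM, and both were DEGs there without each of the 12 libraries in turn, with 4 of the 10 at an unadjusted p under 0.05. The median of this list was 0.03 (0.06 without MOG replicate 2), and its summed level was 2936 ± 84.5 CPM in SHAM, 2630 ± 161 CPM in MOG, 2817 ± 99.5 CPM in GB20 and 2875 ± 97.01 CPM in GV16 (SD, n = 3). Glul made up 69.9% of this sum and was a DEG by DESeq2, not by edgeR, in MOG vs. SHAM. Without Glul the order changed, with 844.6, 876.6 and 842.7 CPM in SHAM, 923.5, 846.2 and 891.2 CPM in MOG, 852.2, 832.1 and 850.2 CPM in GB20, and 843.1, 756.8 and 802.8 CPM in GV16, so that the sum was lowest in MOG with Glul and highest in MOG on average without it. Aqp4, the water channel of Müller glia and astrocytes, had its MOG libraries above all others, as Cnp did. Its levels were 112.9, 97.4 and 104.0 CPM in SHAM, 152.8, 145.3 and 135.5 CPM in MOG, 113.2, 111.1 and 116.1 CPM in GB20 and 112.0, 111.6 and 118.3 CPM in GV16. Unlike Cnp, Aqp4 had higher means in GB20 (113.5 CPM) and GV16 (114 CPM) than in SHAM (104.8 CPM). It was a DEG in GB20 vs. MOG (-0.35) and in GV16 vs. MOG (-0.34), though in 6 and 2 of the 12 fits that left out a library. The first call was lost without any MOG or GB20 library, at -0.40 to -0.31, and the second without any library but SHAM replicates 2 and 3, at -0.39 to -0.30. Gfap, the filament gene of reactive glia, was at 54.9 ± 3.08 CPM in MOG and 51.3 ± 12.3 CPM in GB20 (SD, n = 3), with a mean of 41.3 CPM in GV16. Its GB20 libraries overlapped those of MOG, whereas its 3 GV16 libraries, at 40.2, 34.9 and 48.7 CPM, were all below MOG, though it was not a DEG in GV16 vs. MOG (log2 difference -0.41, adjusted p = 0.905, edgeR quasi-likelihood, Benjamini-Hochberg). DESeq2 on all 12 libraries did not call Gfap there either. The paper, which also used DESeq2, counts Gfap among the genes that needling at GV16 reversed. The reason for this difference was not tested. In GB20 vs. SHAM it was a DEG by both tools (1.15), and in GV16 vs. SHAM (0.84) by DESeq2 but not by edgeR, while Vim was called by DESeq2 alone in GB20 vs. SHAM (0.29). By edgeR the call for Gfap in GB20 vs. SHAM was lost without GB20 replicate 2 (1.12) and without SHAM replicates 1 (1.07) and 3 (1.11). Rlbp1, of the Müller glia, was a DEG in GV16 vs. SHAM (-0.36), lost without SHAM replicates 1 (-0.39) and 2 (-0.31), MOG replicate 3 (-0.36), and GV16 replicates 2 (-0.35) and 3 (-0.33).

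The 14 retinal neuron markers had a median of -0.08 in MOG vs. SHAM (-0.06 without MOG replicate 2), with 4 of the 14 at an unadjusted p under 0.05 and 3 DEGs, all of them ganglion cell genes and all lower: Thy1 (-0.57), Rbpms (-0.64) and Pou4f1 (-1.03). Rbpms was lost without SHAM replicate 1 (-0.54) or MOG replicates 2 (-0.64) and 3 (-0.58). Of the 9 alternatives that left out no library of the comparison, 7 kept the call for each of these 3 genes. Over those 9 the differences were -0.57 to -0.52 for Thy1, -0.66 to -0.51 for Rbpms and -1.04 to -0.86 for Pou4f1. None of the 3 was a DEG in GB20 vs. MOG or GV16 vs. MOG by edgeR or DESeq2, where 4 and 3 of the 14 markers had an unadjusted p under 0.05. By edgeR, in GV16 vs. SHAM all 3 were DEGs (Thy1 -0.61, Rbpms -0.68, Pou4f1 -0.91) together with the cone opsin gene Opn1mw (0.35), and in GB20 vs. SHAM Thy1 was (-0.45). DESeq2 called the same 4 in GV16 vs. SHAM, and in GB20 vs. SHAM it called Opn1mw (0.30 in edgeR) and Pou4f1 (-0.70 in edgeR) besides Thy1. In GV16 vs. SHAM, Thy1 held without each library in turn, Rbpms (-0.90 to -0.58 over these fits) and Pou4f1 (-1.11 to -0.76) were lost without SHAM replicate 1 and GV16 replicates 2 and 3, and Opn1mw (0.29 to 0.44) held in 5 of 12, without SHAM replicate 2, MOG replicates 1 and 3, GB20 replicate 2 or GV16 replicate 1. In GB20 vs. SHAM, Thy1 (-0.49 to -0.42) held in 3 of 12, without MOG replicate 1 or GV16 replicate 1 or 3. Of 10 pigment epithelium and choroid markers 9 were tested, led by Ttr (10.4 FPKM), with a median of 0.28 in MOG vs. SHAM (0.29 without MOG replicate 2). They had 0 DEGs in the 6 comparisons by edgeR, with 4 of the 9 at an unadjusted p under 0.05 in MOG vs. SHAM, and 1 by DESeq2, Rpe65, in MOG vs. SHAM, GB20 vs. SHAM and GV16 vs. SHAM. Their summed level was 26.3, 32.1 and 23.6 CPM in SHAM, 41.6, 55.2 and 42.1 CPM in MOG, 44.3, 51.7 and 43.5 CPM in GB20 and 26.5, 66.2 and 41.4 CPM in GV16. Their part in the Cnp difference was not tested.

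**Figure D4:**
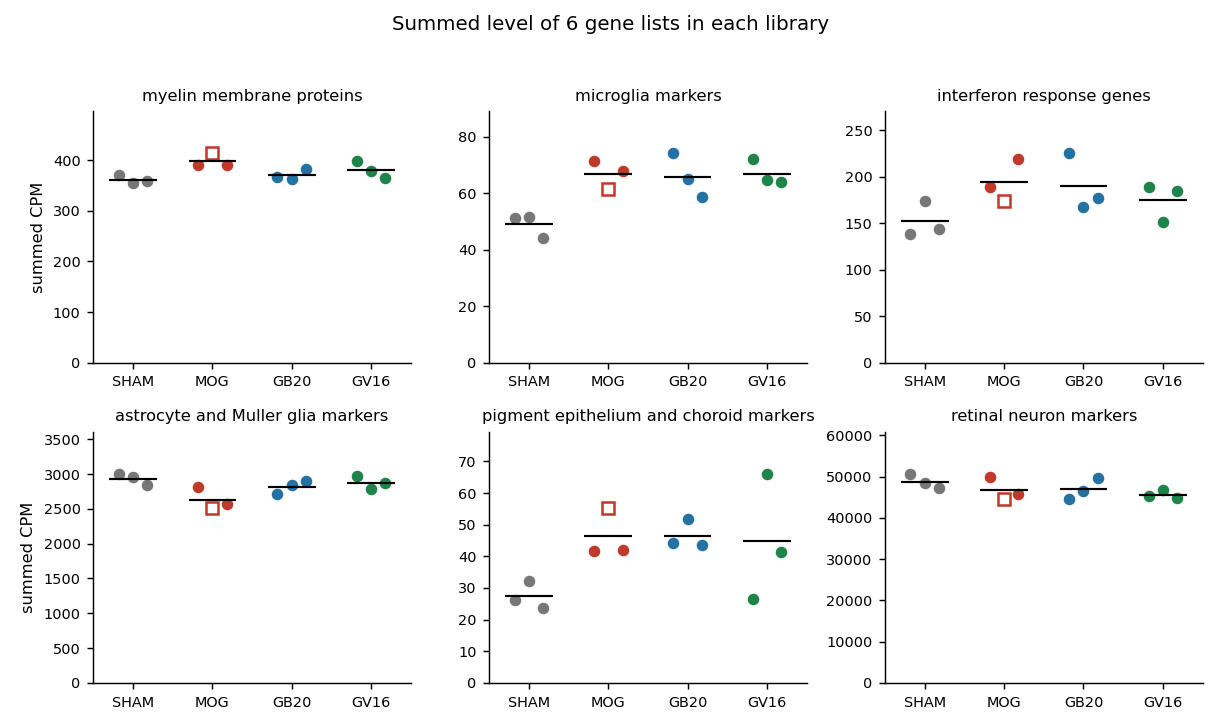
Summed level (CPM) of 6 marker lists in each of the 12 libraries, by group, with group means as black lines and MOG replicate 2 as an open square; the vertical scales differ. The microglia sum was above every SHAM library in all immunized libraries, needled or not.

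The genes most like Cnp across the 12 libraries were found by Pearson correlation of log2 CPM over 16050 genes with a mean of at least 1 CPM, as a description with no test. They were Hkdc1, Prss56, Scara3, Il4ra and Syt15. As the MOG libraries stand apart in Cnp, this choice by itself picks genes that are high in MOG, so the levels that follow support nothing. Hkdc1 had group means of 10.1 CPM in SHAM, 21.4 CPM in MOG, 7.89 CPM in GB20 and 8.86 CPM in GV16, and Prss56 had 8.23, 19.8, 6.67 and 5.15 CPM in the same order. The 5 genes most like Mbp were Prdm2, Me3, Kcnmb2, Gm6363 and 2810402E24Rik, chosen in the same way. The group means of Prdm2 were 95.2 CPM in SHAM, 96.6 CPM in MOG, 89.8 CPM in GB20 and 94.2 CPM in GV16.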

How the data were processed

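The authors deposited a table of counts and a table of FPKM per gene and library for 12 retina libraries (poly-T selected mRNA, NEBNext Ultra kit); per the labels, reads were aligned to mm10 with HISAT2 2.0.5. Of 54532 identifiers, 54409 were in the GENCODE annotation used for names and positions (GRCm38). CPM were computed from the deposited counts with library totals times TMM factors, and FPKM were used as deposited.

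All 12 libraries were fitted together in edgeR 4.0.16 (R 4.3.3), with filterByExpr over the 4 groups at a minimum count of 10, TMM scaling (factors 0.982 to 1.01), a robust quasi-likelihood F-test (two-sided by construction, 8 residual degrees of freedom) and Benjamini-Hochberg adjustment over 18299 genes, with 0.05 as the threshold and no minimum fold. Intervals are 95%, from the fitted log2 difference and its SE. Counting intervals are exact Poisson and, like the floor of 3 counts, cover counting error only. Ratios and correlations were tested by exact permutation in Python 3.11.15 (scipy 1.17.1), correlations on log2 CPM with a prior count of 1. Correlations over the 9 libraries outside MOG, over 362880 orders, and on group deviations, over 1296 orders within groups, replaced those over 12 libraries and were chosen after seeing the data. Alternatives used DESeq2 1.42.0, limma 3.58.1 and each library left out in turn. The fits were tested on simulated data first.

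Besides the 9 genes, the genes named are those of 14 marker lists that were DEGs in any comparison (up to 10 a list), the most abundant gene of most lists, and the 5 genes most correlated with Cnp and with Mbp. Dnajc7, Nkx2-2, Neu4, Rpe65, Ifit1, Bst2, Vim, C1qb, Crybb2, Bfsp1, the tested transcription factors and the genes highest in MOG replicate 2 were named after their values were seen. The genes and the lists were chosen with earlier results of these data known. The P-values measure the spread between libraries, each of which may pool the 2 or 3 mice of a group in 1 repeat of the experiment. Within groups, replicates differed by 2.87 to 15.0 in chi-square per gene, above counting error.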

Additional observations from a re-analysis of the deposited data

How the results depend on the processing

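The DEG counts moved more than the Cnp differences. With no filter on low counts they were 539 in MOG vs. SHAM, 140 in GB20 vs. MOG, 73 in GV16 vs. MOG, 8 in GB20 vs. GV16, 282 in GB20 vs. SHAM and 395 in GV16 vs. SHAM. DESeq2 on all 12 libraries gave 5 in GB20 vs. GV16, 152 in GB20 vs. SHAM and 202 in GV16 vs. SHAM, and on the 6 libraries of a comparison 126 in GB20 vs. MOG, 57 in GV16 vs. MOG, 4 in GB20 vs. GV16 and 124 in GB20 vs. SHAM. edgeR on 6 libraries gave 118 in GB20 vs. MOG, 48 in GV16 vs. MOG, 3 in GB20 vs. GV16 and 66 in GV16 vs. SHAM. With the gene length trend removed, GB20 vs. SHAM had 125. With the replicate number as a block the counts were 404 in MOG vs. SHAM, 73 in GB20 vs. MOG, 47 in GV16 vs. MOG, 182 in GB20 vs. SHAM, 236 in GV16 vs. SHAM and 347 for any difference; same-numbered libraries were correlated at -0.0953 to 0.278, over 0.1 in 3 of 18 pairs. The experiment was repeated 3 times, and whether a replicate number marks 1 repeat across the groups is not stated. limma on log2(FPKM + 1) gave 57, 12, 9, 2, 5 and 7 in the 6 comparisons in the order above, and on log2(FPKM + 0.1) 56, 16, 12, 3, 7 and 9. There Cnp was no longer a DEG in MOG vs. SHAM (0.43 and 0.50) or in GB20 vs. MOG (-0.49 and -0.57). In every other alternative that left out no library of a comparison, Cnp was a DEG in these comparisons, and in GV16 vs. MOG it was one in all alternatives. The causes of these shifts were not tested.

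Leaving out each library in turn gave 91 to 427 DEGs in MOG vs. SHAM, 13 to 83 in GB20 vs. MOG, 10 to 38 in GV16 vs. MOG, 0 to 4 in GB20 vs. GV16, 14 to 116 in GB20 vs. SHAM, 23 to 231 in GV16 vs. SHAM and 105 to 261 for any difference. The lowest counts were without MOG replicate 3, MOG replicate 2, GV16 replicate 2, GB20 replicate 1, SHAM replicate 1, GV16 replicate 3 and SHAM replicate 1. Cnp ranged from 0.45 to 0.55 in MOG vs. SHAM and from -0.62 to -0.53 in GB20 vs. MOG. Its small differences outside MOG moved more in proportion. They ran from -0.131 to -0.030 in GB20 vs. SHAM, -0.258 to -0.125 in GV16 vs. SHAM and 0.049 to 0.184 in GB20 vs. GV16. Values that changed sign were Mbp in MOG vs. SHAM (-0.0085 to 0.25) and GV16 vs. SHAM (-0.079 to 0.082), and Mog in MOG vs. SHAM (-0.33 to 0.19), GB20 vs. MOG (-0.076 to 0.39) and GB20 vs. SHAM (-0.11 to 0.40). The exact permutation p of the ratio of Cnp to Mbp ranged from 0.0359 to 0.389 and to Mog from 0.0397 to 0.170. The correlation of Cnp with Mbp ranged from -0.482 to 0.0471 and with Mog from 0.556 to 0.900.

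Mog could not be fitted by edgeR on 6 libraries in GV16 vs. MOG and GV16 vs. SHAM, where it failed the filter. Depth limits the sheath genes below Mbp: at these totals 1 count is about 0.06 CPM, and 6 of the 9 genes had too few counts for a test. With 3 libraries a group, intervals for Mog were wide. Bulk counts do not show which cells carry Cnp or Mbp transcripts.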
